A study of Mus musculus with 9 samples.

Results

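The macrophage and inflammation miRNAs described here are miR-223, miR-511, miR-146a, miR-146b and miR-21a. They were chosen by name, as every row of the miRNA table that belongs to one of these 5 precursors. That gave 10 of the 1251 rows of the table, a 5p and a 3p strand for each precursor. The study asked how miRNAs differ between adipose depots in diet-induced obesity. Small RNA was sequenced from interscapular brown adipose tissue (BAT), inguinal subcutaneous adipose tissue (SAT) and epididymal visceral adipose tissue (VAT), with 3 libraries per depot. All 9 libraries came from male C57BL/6J mice (strain written C57BL 6J (B6) in the labels). The mice were 5 to 6 weeks old at the start, were fed a high fat diet (HFD) with 45% of energy from fat, 20% from protein and 35% from carbohydrate for 11 weeks, and were fasted for 4 hours before tissue collection. All libraries are of HFD mice, so that every comparison is between depots and none is between diets. Each library is named by its depot and the number in its title: BAT 12, BAT 15 and BAT 20, SAT 14, SAT 19 and SAT 20, and VAT 14, VAT 17 and VAT 20. The labels and the study do not say that a number is one mouse, and the study calls the samples of a depot biological replicates.

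A miRNA precursor is an RNA hairpin from which both arms can be cut as short mature strands, named 5p and 3p, and usually one of them is kept while the other is degraded. The kept strand guides the silencing complex to messenger RNAs that pair with its seed, the bases from position 2 to 8. MiR-223 is made in the myeloid lineage, in neutrophils, monocytes and macrophages. MiR-511 is cut from an intron of Mrc1, the gene of the mannose receptor CD206 that tissue macrophages carry. MiR-146a is induced by NF-κB after Toll-like receptor signals, and both miR-146a and miR-146b can repress the adaptors Traf6 and Irak1. MiR-21 is made in many cell types, fibroblasts and adipocytes among them, and is known to rise in inflamed and fibrotic tissue. Visceral fat of obese mice is known for its macrophages, which can surround dying adipocytes.

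RefSeq (GRCm38.p6, the build named mm10 in the submitters' processing notes) gave a mature sequence for 9 of the 10 members. They are shown because the strands of one precursor behaved differently and because the miR-146 pair is nearly identical. The seed is in capitals and every sequence reads 5′ to 3′.
miR-223-3p: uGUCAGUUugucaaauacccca
miR-223-5p: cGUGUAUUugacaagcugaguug
miR-511-3p: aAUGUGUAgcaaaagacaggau
miR-146a-5p: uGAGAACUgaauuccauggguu
miR-146a-3p: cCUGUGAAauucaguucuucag
miR-146b-5p: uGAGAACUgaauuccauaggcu
miR-146b-3p: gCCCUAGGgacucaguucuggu
miR-21a-5p: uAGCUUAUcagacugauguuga
miR-21a-3p: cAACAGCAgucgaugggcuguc

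MiR-146a-5p and miR-146b-5p share their seed and 20 of 22 bases. Counted from the 5′ end of miR-146a-5p, the differences are G18A and U21C, so that a read cut short at its 3′ end can match both, and the authors shared such reads in proportion. Among the 1001 miRNAs of the table with a RefSeq mature sequence, 1 other shared a seed with a member, miR-21c with miR-21a-5p, and it did not pass the filter on low values described below. No other miRNA gene lies within 10 kb of any of the 5 precursors in GENCODE M21 (GRCm38), so that none of them belongs to a miRNA cluster by that distance.

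Hairpin sequences from the same RefSeq table show where the mature strands lie, and the mature strands with a sequence are in capitals.
Mir223: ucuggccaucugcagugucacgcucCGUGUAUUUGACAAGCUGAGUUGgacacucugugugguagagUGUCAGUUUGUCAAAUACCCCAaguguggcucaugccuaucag
Mir511: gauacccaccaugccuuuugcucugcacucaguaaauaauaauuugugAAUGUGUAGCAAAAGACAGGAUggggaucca
Mir146b: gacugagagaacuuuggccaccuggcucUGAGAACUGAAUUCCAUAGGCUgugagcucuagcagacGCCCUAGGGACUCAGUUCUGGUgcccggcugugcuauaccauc
Mir21a: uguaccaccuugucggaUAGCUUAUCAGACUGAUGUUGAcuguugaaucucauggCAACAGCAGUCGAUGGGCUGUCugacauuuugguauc

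Mir223 lies at chrX:96242817-96242926 on the plus strand, in an exon of the non-coding gene F630028O10Rik. Mir511 lies at chr2:14261003-14261081 on the plus strand, in an intron of Mrc1 and in the same orientation. Mir21a lies at chr11:86584067-86584158 on the minus strand, and overlaps an exon of Vmp1, which is read from the same strand. Mir146b lies at chr19:46342762-46342870 on the plus strand, in an intron of Mfsd13a. Mir146, the gene of miR-146a, lies at chr11:43374397-43374461 on the minus strand and overlaps no other gene. The host transcripts were not analysed here.

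The deposited values are on a log2 scale, and their lowest value, 3.32, is the log2 of 10. A miRNA at this lowest value was at the bottom of the scale of the table, and a fold against a depot in which all libraries are at it is given as a lower bound. Of the 1251 miRNAs, 839 were at the lowest value in all 9 libraries. Between 255 and 273 miRNAs were above it in the BAT libraries, 240 to 285 in the SAT libraries and 323 to 349 in the VAT libraries. The table holds no read counts, so that the depth of each library is unknown and the spread between libraries is the only error given. Equal ranks carry equal or nearly equal values in different libraries, up to a common maximum of 18.67, so that a value follows the rank of a miRNA within its library. Tests were run on the 343 miRNAs that exceeded the lowest value in 3 or more of the 9 libraries, counted without regard to depot.

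For 3 of the 5 precursors both strands were above the lowest value in some library. MiR-223-5p and miR-146a-3p were at 3.32 in all 9 libraries, although their partners reached 10.38 and 10.08. MiR-146b-3p was above the lowest value in 1 library, VAT 14, at 3.38. These 3 strands did not pass the filter and were not tested, which left 7 of the 10 members. Of these, 4 (miR-223-3p, miR-146a-5p, miR-146b-5p and miR-21a-5p) would pass the filter without VAT. The other 3, miR-511-3p, miR-511-5p and miR-21a-3p, were at the lowest value in all BAT libraries and passed only with VAT, so that their higher level in VAT than in BAT was built into the selection. Their VAT/BAT differences are given as descriptions, as is VAT/SAT for miR-511-3p, which passed through the 3 VAT libraries alone. For miR-511-5p and miR-21a-3p, each above the lowest value in 2 SAT libraries, the filter also fixes VAT/SAT in part.

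**Figure D1:**
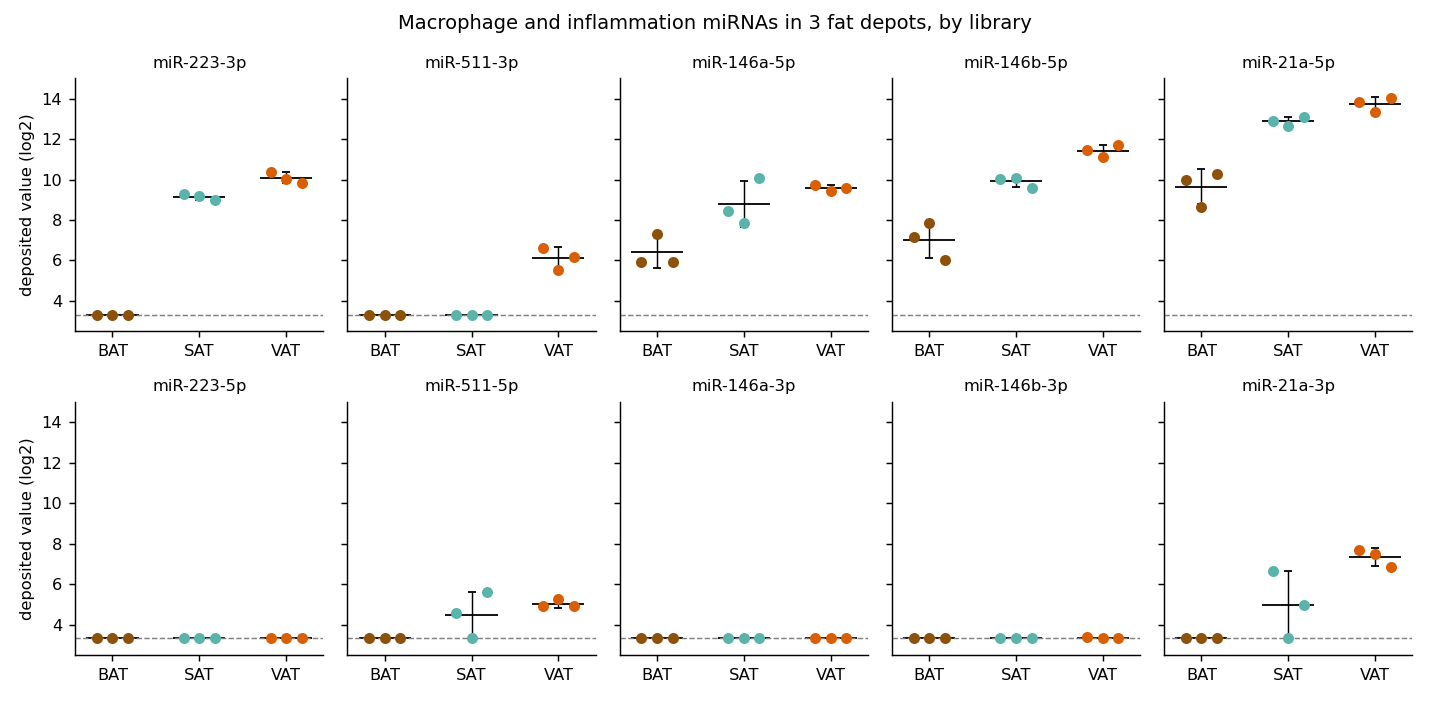
Deposited log2 value (y axis) of the 10 members in the 3 BAT, 3 SAT and 3 VAT libraries. Each point is 1 library, the horizontal line is the depot mean, the bar is the SD, and the dashed line is the lowest value of the table, 3.32. MiR-223-3p was at the lowest value in BAT only, miR-511-3p was above it in VAT only, and miR-223-5p and miR-146a-3p lay on the dashed line in every library.

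Among the 10 members, the myeloid miR-223-3p showed the widest separation of BAT from the other depots. It was at 3.32 in BAT 12, BAT 15 and BAT 20. In SAT it was at 9.27, 9.19 and 8.997 in the libraries 14, 19 and 20, and in VAT at 10.38, 10.02 and 9.85 in the libraries 14, 17 and 20. The 3 depots therefore did not overlap, and their order was VAT, SAT and BAT. Ranked from the most abundant miRNA of a library, it stood at 84 to 94 in VAT and at 108 to 116 in SAT. The VAT mean was 10.08 ± 0.27 (SD, n = 3), at least 109-fold above BAT (limma, adjusted p = 2.34e-05). The SAT mean was 9.15 ± 0.14 (SD, n = 3), at least 57.0-fold above BAT (limma, adjusted p = 6.69e-06). The BAT libraries had no spread for this miRNA, so that the error came from the other depot and from the variance that limma shares between miRNAs. Between VAT and SAT the log2 difference was 0.93 (SE 0.17, 95% confidence interval 0.48 to 1.38, adjusted p = 0.0305 in limma). That call was lost when any of the 6 libraries was left out (adjusted p = 0.0525 to 0.0777), although the direction stayed the same.

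MiR-511, the miRNA inside the mannose receptor gene, differed between its strands. MiR-511-3p was at 3.32 in the 3 BAT and the 3 SAT libraries, and at 6.62, 5.53 and 6.19 in VAT 14, VAT 17 and VAT 20. Its VAT mean was 6.11 ± 0.55 (SD, n = 3), at least 6.92-fold above either other depot. MiR-511-5p was also at 3.32 in the BAT libraries and at 4.92, 5.24 and 4.92 in VAT 14, VAT 17 and VAT 20, but in SAT it was at 4.55, 3.32 and 5.60 in the libraries 14, 19 and 20. In VAT this strand was at least 3.26-fold above BAT. SAT 20 lay above every VAT library and SAT 19 was at the lowest value, so that the SAT libraries spread over both other depots. The log2 difference of miR-511-5p was 1.17 in SAT/BAT (SE 0.61, 95% confidence interval -0.41 to 2.75, adjusted p = 0.182) and 0.54 in VAT/SAT (SE 0.60, 95% confidence interval -1.02 to 2.09, adjusted p = 0.58). The SAT/BAT difference was 1.75 without SAT 19 (adjusted p = 0.0339 in limma) and 0.62 without SAT 20 (adjusted p = 0.319), and the VAT/SAT difference was -0.048 and 1.09.

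The miR-146 pair, which damps Toll-like receptor signalling, was above the lowest value in every library. MiR-146b-5p was at 7.15, 7.84 and 6.04 in BAT 12, BAT 15 and BAT 20, at 10.05, 10.08 and 9.59 in SAT 14, SAT 19 and SAT 20, and at 11.48, 11.10 and 11.70 in VAT 14, VAT 17 and VAT 20. No library of one depot reached into another. The VAT/BAT difference of miR-146b-5p was 4.41 on the log2 scale, or 21.3-fold (SE 0.49, adjusted p = 0.000518 in limma). It was also higher in SAT than in BAT by 2.90 (SE 0.51, adjusted p = 0.0103). The VAT/SAT difference was 1.52 (SE 0.22, adjusted p = 0.0235 in limma). Its adjusted p rose above 0.05 without SAT 19 (0.0614), SAT 20 (0.0616), VAT 14 (0.0591) or VAT 20 (0.0666), each left out alone.

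MiR-146a-5p had the same order of means but more overlap. It was at 5.94, 7.32 and 5.94 in BAT 12, BAT 15 and BAT 20, and at 9.71, 9.45 and 9.59 in VAT 14, VAT 17 and VAT 20. In SAT it was at 8.45, 7.85 and 10.08 in the libraries 14, 19 and 20, so that SAT 20 exceeded the VAT libraries while the other two were below them. The log2 difference was 3.19 in VAT/BAT, or 9.10-fold (SE 0.42, adjusted p = 0.00103 in limma). In SAT/BAT the difference was 2.39 (SE 0.74, 95% confidence interval 0.46 to 4.33) with an adjusted p of 0.0567, which missed the threshold although no SAT library overlapped with BAT. In VAT/SAT it was 0.79 (SE 0.61, 95% confidence interval -0.77 to 2.35, adjusted p = 0.42), with 1.43 without SAT 20 (adjusted p = 0.0616) and 0.32 without SAT 19 (adjusted p = 0.73).

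MiR-21a-5p was the most abundant member in each library. It was at 9.98, 8.65 and 10.29 in BAT 12, BAT 15 and BAT 20, at 12.89, 12.65 and 13.09 in SAT 14, SAT 19 and SAT 20, and at 13.84, 13.32 and 14.02 in VAT 14, VAT 17 and VAT 20. The depots did not overlap, and its rank within a library was 86 to 125 in BAT, 38 to 43 in SAT and 27 to 36 in VAT. The log2 difference was 4.09 in VAT/BAT, or 17.0-fold (SE 0.48, adjusted p = 0.000639 in limma), and 3.24 in SAT/BAT, or 9.44-fold (SE 0.48, adjusted p = 0.00589). In VAT/SAT it was 0.85 (SE 0.23, 95% confidence interval 0.25 to 1.44) with an adjusted p of 0.07, and 1.05 without VAT 17 (adjusted p = 0.0399).

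The other strand, miR-21a-3p, was at 3.32 in the BAT libraries, at 6.64, 3.32 and 4.96 in SAT 14, SAT 19 and SAT 20, and at 7.70, 7.51 and 6.85 in VAT 14, VAT 17 and VAT 20. The VAT libraries lay above all others, while SAT 19 was level with BAT. Its VAT mean was 7.35 ± 0.45 (SD, n = 3), at least 16.3-fold above BAT. Its log2 difference was 1.65 in SAT/BAT (SE 0.88, adjusted p = 0.189) and 2.38 in VAT/SAT (SE 0.89, adjusted p = 0.128). The SAT/BAT difference was 2.48 without SAT 19 (adjusted p = 0.0417 in limma) and 0.82 without SAT 14 (adjusted p = 0.32), and the VAT/SAT difference 1.55 and 3.21.

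Counted over the table, the 4 members that pass the filter without VAT were higher in VAT than in BAT at an adjusted p under 0.05, where 66.2% of the 343 tested miRNAs differed, 39.4% higher and 26.8% lower in VAT. The fit called the other 3 tested members as well, which the filter fixes in part. SAT/BAT called miR-223-3p, miR-146b-5p and miR-21a-5p, while 40.5% of the tested miRNAs differed, 22.4% higher and 18.1% lower in SAT. VAT/SAT called miR-223-3p and miR-146b-5p, beside miR-511-3p, whose call rests on the filter, while 16.0% of the tested miRNAs differed, 8.45% higher and 7.58% lower in VAT. No member was lower in VAT or SAT than in BAT, or lower in VAT than in SAT, at this threshold. As a description of those that passed the filter only, the median log2 difference of the 7 was 4.03 in VAT/BAT, 2.39 in SAT/BAT and 0.93 in VAT/SAT, and over the 343 tested miRNAs it was 0.40, 0.26 and 0.10. VAT/BAT and SAT/BAT use the same BAT libraries, and VAT/BAT and VAT/SAT the same VAT libraries, so that these counts are not independent of each other. An F test in limma on all 9 libraries called these 7 members too, with the same limit for miR-511-3p, miR-511-5p and miR-21a-3p, and the largest adjusted p was that of miR-511-5p (0.0381). It called 65.9% of the tested miRNAs.

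**Figure D2:**
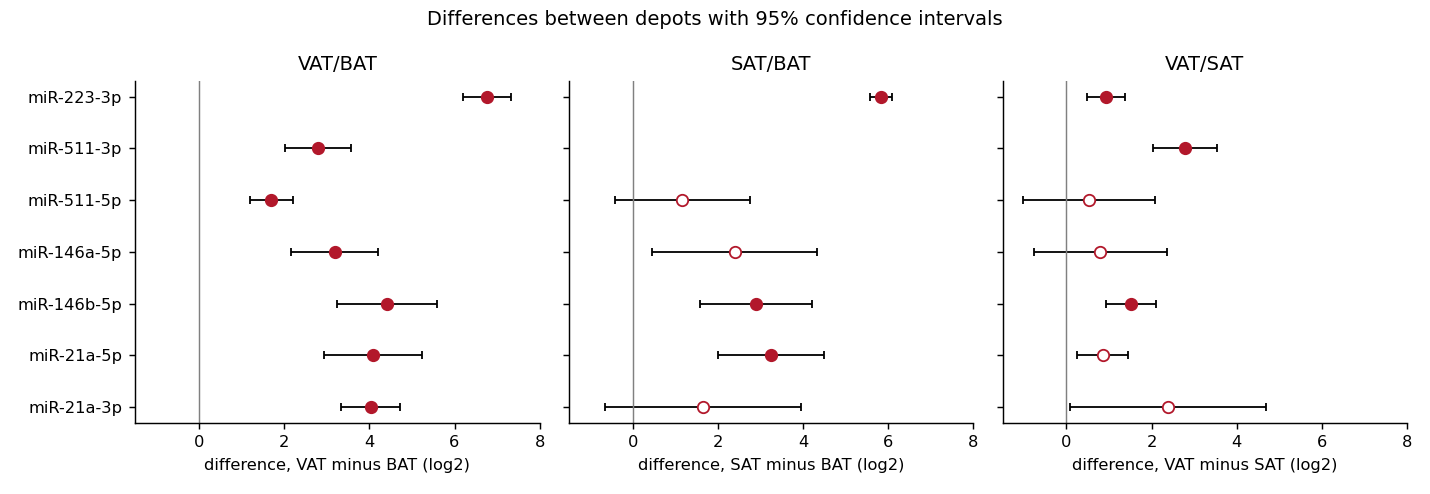
Log2 difference between depots (x axis) for the 7 tested members in VAT/BAT, SAT/BAT and VAT/SAT, with 95% confidence intervals from limma. Filled points have an adjusted p under 0.05, and miR-511-3p has no point in SAT/BAT because all 6 libraries were at the lowest value. The VAT/BAT points are all filled, from 1.70 for miR-511-5p to 6.76 for miR-223-3p, but miR-511-3p, miR-511-5p and miR-21a-3p passed the filter only with VAT.

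The study called miRNAs without adjustment and with a minimum fold. Under its thresholds, applied to the limma fit, miR-146a-5p was also called in SAT/BAT, and miR-21a-5p and miR-21a-3p in VAT/SAT. For miR-21a-3p, which passed the filter only with VAT, this call is a description. These thresholds called 41.4% of the tested miRNAs higher in VAT/BAT, 28.6% in SAT/BAT and 20.7% in VAT/SAT. Overlap between depots was lacking for 7 members in VAT/BAT, the 3 that passed only with VAT among them, against 44.3% of the tested miRNAs that were higher without overlap. In SAT/BAT this held for miR-223-3p, miR-146a-5p, miR-146b-5p and miR-21a-5p, against 31.5%. In VAT/SAT it held for miR-223-3p, miR-146b-5p and miR-21a-5p, against 22.4%. It also held for miR-511-3p and miR-21a-3p, but these passed the filter only with VAT, so that for them it is a description.

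**Figure D3:**
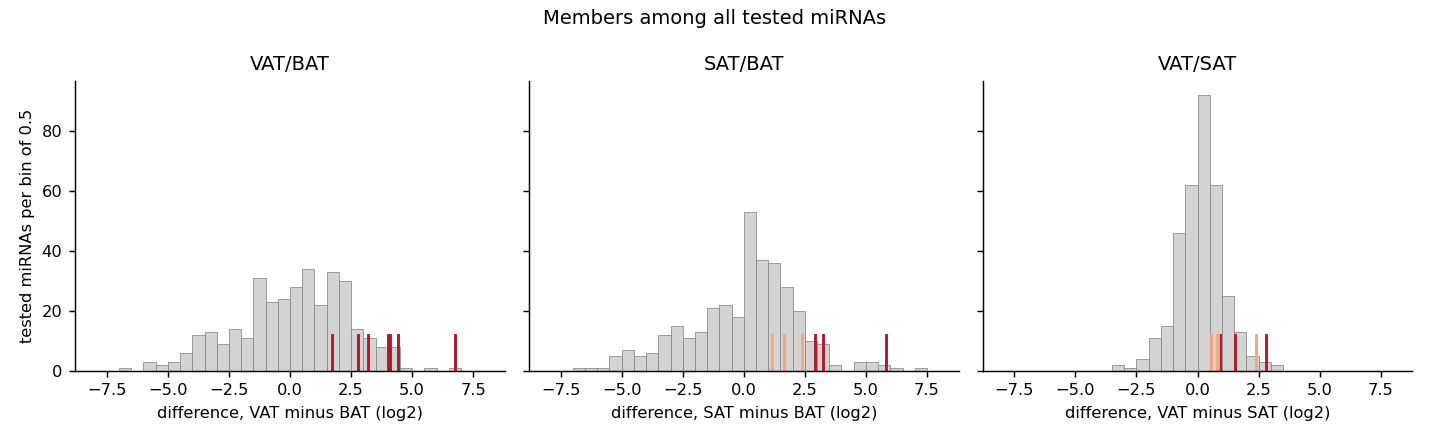
Number of the 343 tested miRNAs (y axis) per bin of 0.5 of the log2 difference between depots (x axis), with the tested members as vertical lines, dark where the adjusted p was under 0.05 and light where it was not. All member lines lie at positive differences, and miR-511-3p in SAT/BAT, at 0, is not drawn.

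Summed on the unlogged scale, with the lowest value subtracted, the 10 members came to 761 to 1348 in the BAT libraries, 8307 to 11078 in the SAT libraries and 14343 to 21732 in the VAT libraries. The depots did not overlap in this sum. MiR-21a-5p made up 71.2% to 92.1% of it in all libraries but BAT 15, where it was 51.5%, so that the sum mainly follows 1 miRNA. Since a value follows rank within its library, this sum, those below and their percentages describe deposited values and not shares of reads. In bulk tissue, fewer cells of a type and less RNA per cell cannot be told apart.

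The difference between 2 members within the same library was taken for the 3 pairs in which both passed the filter. Mature miRNAs of nearly equal length (22 bases in those with a sequence) were compared, and the differences are of log2 values. MiR-511-5p minus miR-511-3p was 1.23, 0.00 and 2.27 in SAT 14, SAT 19 and SAT 20, and -1.70, -0.29 and -1.27 in VAT 14, VAT 17 and VAT 20. No SAT library fell below 0 and no VAT library rose above it, so that the higher strand was 5p in 2 SAT libraries and 3p in the VAT libraries. In BAT and in SAT 19 both strands were at the lowest value, and the difference of 0 there carries no information about the strands. Since miR-511-3p was at the lowest value in all SAT libraries and was selected through VAT, no test of this difference is read.

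MiR-146b-5p exceeded miR-146a-5p within the VAT libraries by 1.84 ± 0.24 (SD, n = 3). The same difference was 1.11 ± 1.42 for SAT (SD, n = 3) and 0.61 ± 0.56 for BAT (SD, n = 3). Only in SAT 20 was miR-146a-5p the higher of the pair, by 0.49. The depots did not differ beyond this spread in an exact permutation test over the 1680 assignments of libraries to depots (p = 0.314, adjusted over the 3 pairs 0.314, smallest p possible 0.00357). MiR-21a-5p exceeded miR-21a-3p by 6.37 ± 0.71 within the VAT libraries (SD, n = 3), and by 7.90 ± 1.55 for SAT (SD, n = 3). No test of this difference is read. In BAT and in SAT 19, where miR-21a-3p was at the lowest value, the difference is a lower bound set by miR-21a-5p.

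**Figure D4:**
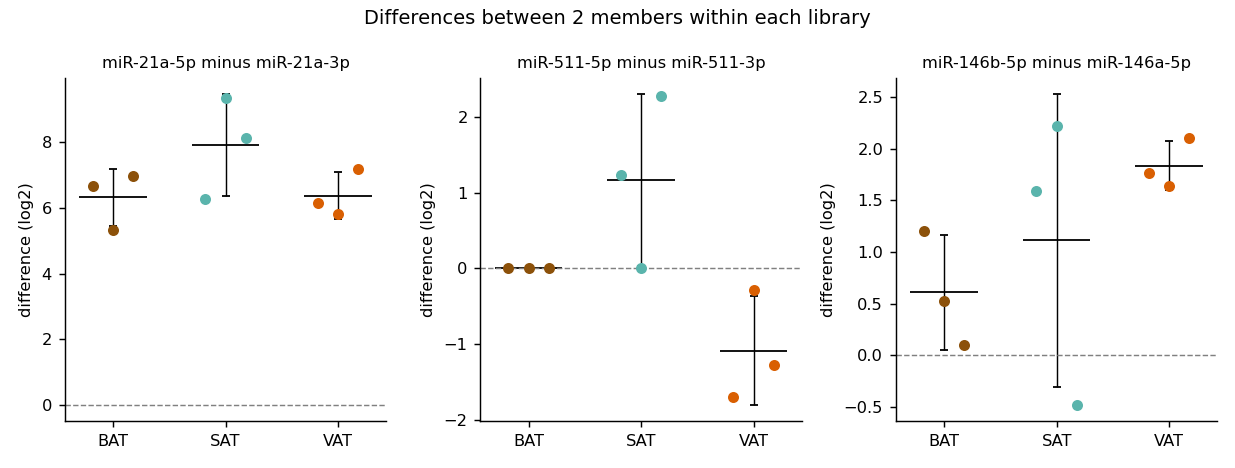
Difference of the log2 values of 2 members in the same library (y axis, a scale of its own in each panel) for the strands of miR-21a, the strands of miR-511 and the miR-146 pair. Points are libraries, lines depot means, bars the SD and the dashed line 0. For miR-511 the VAT libraries lie below 0 and the SAT libraries at or above it, and for the miR-146 pair SAT 20 is the only library below 0.

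SAT 20, singled out after the values were seen, also stood apart in miRNAs of leukocytes. MiR-142-5p, made in all blood-forming lineages, was at 11.88 in SAT 20 and at 7.87 and 7.85 in SAT 14 and SAT 19. MiR-142-3p was at 7.50 in SAT 20 and at the lowest value in the other SAT libraries and in BAT. MiR-150-5p, abundant in mature lymphocytes, was at 16.72 in SAT 20, 13.56 in SAT 14 and 13.84 in SAT 19, and was chosen after its values were seen. In the same library miR-223-3p was at 8.997, the lowest of the SAT libraries. MiR-342-3p and miR-342-5p, at 11.65 and 4.64 in SAT 20, were also the highest there among the SAT libraries. Both were higher in VAT 17, at 11.88 and 6.74. The 5 leukocyte and lymphoid miRNAs of the table summed to 114771 in SAT 20, 13926 to 16102 in the other SAT libraries, 9396 to 22673 in VAT and 20925 to 28525 in BAT on the unlogged scale. MiR-150-5p alone made up 86.9% to 93.8% of this sum in SAT, 61.7% to 78.0% in VAT and 94.9% to 96.7% in BAT, so that the sum mainly follows that miRNA. The part of this library's leukocyte miRNAs in the high miR-146a-5p and miR-511-5p of SAT 20 was not tested.

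**Figure D5:**
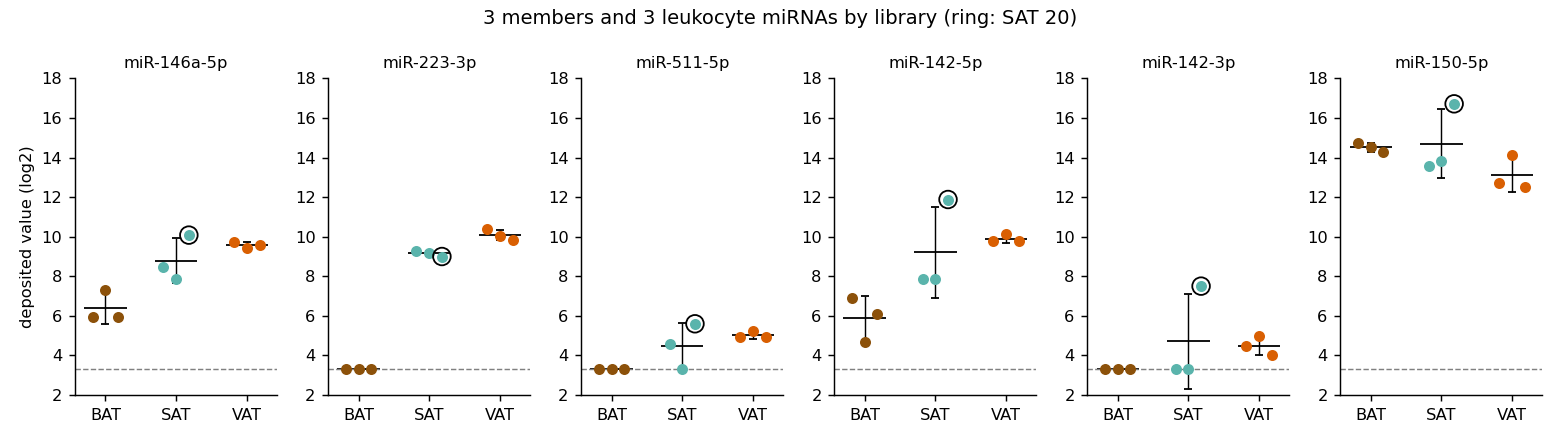
Deposited log2 value (y axis) of miR-146a-5p, miR-223-3p, miR-511-5p, miR-142-5p, miR-142-3p and miR-150-5p by depot, with points for libraries, lines for depot means, bars for the SD, a dashed line at the lowest value and a ring around SAT 20. The ringed library is the highest of the 9 for each miRNA shown except miR-223-3p.

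MiR-142-5p was also higher in VAT than in BAT, by 4.01 on the log2 scale (SE 0.56, adjusted p = 0.00138 in limma). MiR-142-3p, at 3.32 throughout BAT, was higher by at least 1.16. MiR-342-5p was at 6.48, 6.74 and 5.85 in VAT 14, VAT 17 and VAT 20, with a log2 difference of 2.59 from SAT and 2.22 from BAT. MiR-142-3p and miR-342-5p passed the filter only with VAT, so that these differences are descriptions. The lymphocyte miRNA miR-150-5p went the other way in VAT/BAT, with a log2 difference of -1.41 (adjusted p = 0.0358 in limma). The VAT/BAT call of miR-150-5p was lost without BAT 12, BAT 15, BAT 20, VAT 14 or VAT 20 (highest adjusted p = 0.12). Of the 5 leukocyte and lymphoid miRNAs, the fit called 4 higher, miR-142-3p and miR-342-5p among them, and 1 lower in VAT than in BAT. Of all tested miRNAs 39.4% were higher and 26.8% lower. None of the 5 passed the limma threshold in SAT/BAT, with or without adjustment. MiR-342-5p alone was called in VAT/SAT, where 8.45% of all tested miRNAs were higher. With 1 library left out, its call was lost in 5 of 6 limma fits in VAT/BAT (adjusted p up to 0.115) and in 5 of 6 in VAT/SAT (up to 0.0815).

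A list of 17 other miRNAs with roles in macrophages or inflammation was read beside the members. All 17 were in the table and 11 were tested. In VAT/BAT 6 were higher and 1 lower, where 39.4% of all tested miRNAs were higher and 26.8% lower. In SAT/BAT 5 were higher (22.4% of all tested), and in VAT/SAT 2 were higher and 2 lower (8.45% and 7.58% of all tested). Their median log2 difference was 1.08 in VAT/BAT, 1.11 in SAT/BAT and -0.12 in VAT/SAT. MiR-155-5p, which is induced in macrophages by Toll-like receptor ligands, was at the lowest value in all 9 libraries, as were miR-155-3p, miR-33-5p and miR-124-3p. The largest VAT/BAT differences among the called miRNAs of the list were 2.97 for miR-221-3p (adjusted p = 0.000287), 2.41 for let-7i-5p (adjusted p = 0.00556), 1.88 for let-7e-5p (adjusted p = 0.000596), all in limma. MiR-222-3p followed with 1.57 (limma, adjusted p = 0.00269). The 1 called lower was miR-125a-5p, by -1.31 (limma, adjusted p = 0.0109). It was also lower in VAT/SAT, by -1.12 (limma, adjusted p = 0.0235), a call kept in 11 of 18 alternative fits. On the unlogged scale the list summed to 116272 to 186143 in BAT, 149351 to 153905 in SAT and 98233 to 120189 in VAT. MiR-125a-5p made up 73.2% to 80.9% of it in BAT, 60.5% to 62.4% in SAT and 37.3% to 44.2% in VAT. Let-7e-5p, unlike any member, was lower in VAT than in SAT, by a log2 difference of -1.09 (adjusted p = 0.0235 in limma, up to 0.0663 without SAT 19 or VAT 20).

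The profiles most like those of the 5 main strands were found as the smallest root mean square difference of log2 values over the 9 libraries, after each miRNA was centred on its own mean. For miR-223-3p they were miR-335-3p (0.93), miR-340-5p (1.05) and miR-224-5p (1.08), each with a higher mean in SAT than in VAT, unlike miR-223-3p. For miR-511-3p they were miR-22-3p (0.58), miR-450a-5p (0.58) and miR-15a-5p (0.64), and the BAT and SAT means of miR-450a-5p were also 3.32. For miR-146a-5p they were miR-27b-5p (0.50), miR-708-3p (0.54) and miR-29b-3p (0.58). For miR-146b-5p they were miR-34c-5p (0.54), miR-152-3p (0.60) and miR-10b-5p (0.62). For miR-21a-5p they were miR-26b-5p (0.58), miR-152-3p (0.60) and miR-99a-3p (0.62). Among the members themselves, miR-511-5p was closer to miR-146a-5p (0.78) than to miR-511-3p of its own precursor (1.12), and miR-146a-5p and miR-146b-5p were 0.89 apart. These points share library and depot, so that the values describe likeness and carry no test, and ranking by Spearman's rho in place of this distance named 1 of the same 3 miRNAs for miR-511-3p and 0 for each of the other members.

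Markers of tissue and of other cells were read in the same libraries, as counts of calls and, for some lists, sums on the unlogged scale. For scale, 39.4% of the 343 tested miRNAs were called higher and 26.8% lower for VAT against BAT. The shares were 22.4% higher and 18.1% lower for SAT against BAT. For VAT against SAT they were 8.45% higher and 7.58% lower. No list was tested against these shares. Brown fat miRNAs, of which miR-378a-3p made up 85.6% to 93.4%, came to 169079 to 470070 in BAT and 37092 to 79285 in SAT and VAT. Of the 8 tested, 6 were lower in VAT and 5 lower in SAT than in BAT. Both counts include miR-365-1-5p, which passed the filter through BAT alone, so that its lower level elsewhere was built into the selection. Of the 4 miRNAs from Hox clusters, 2 were higher in VAT and 4 higher in SAT than in BAT, and 1 was lower in VAT than in SAT. Fibroblast miRNAs came to 2359 to 3012 in BAT, 7149 to 8194 in SAT and 10798 to 13175 in VAT. The order was the same as for miR-21a-5p, miR-223-3p and miR-146b-5p. MiR-199a-3p made up 32.0% to 44.8% of the sum in BAT, 58.6% to 67.5% in SAT and 72.6% to 80.8% in VAT. Of the 4 fibroblast miRNAs, 3 were higher in VAT and in SAT than in BAT, and miR-214-3p was not called (log2 difference -0.11 in VAT/BAT). Endothelial miRNAs came to 2947 to 4792 in BAT and 9901 to 12778 in SAT and VAT, and both were higher in VAT and in SAT than in BAT. Their part in the differences of the members was not tested. Of the 3 tested red cell and platelet miRNAs, miR-451a was higher in VAT than in BAT by 2.21, miR-144-5p, which passed the filter through VAT alone, by at least 1.32, and miR-486-5p was lower, with a log2 difference of -2.49. Liver miRNAs came to 86.3 to 1072 in BAT and at most 7.60 elsewhere. The 1 tested, miR-122-5p, was lower in VAT and in SAT than in BAT. It passed the filter only with BAT, so that these differences are descriptions. Muscle miRNAs, nearly all miR-133a-3p, were high in BAT 15 (151562), BAT 20 (420524) and VAT 20 (151385) and between 912 and 6164 in the other libraries, and none of the 3 tested passed the limma threshold in any comparison, with or without adjustment. With BAT 15, BAT 20 or VAT 20 left out alone, the 4 members that pass the filter without VAT were still called in VAT/BAT. The same fits called 209, 236 and 187 of the 343 tested miRNAs. Each of these fits kept other libraries high in muscle miRNAs, and the part of muscle in the differences was not tested.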

How the data were processed

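The members and the lists of other miRNAs were chosen with earlier results of these data known. Per the study's methods, the authors aligned reads to precursors from miRBase and retained those within mature strands. A read matching more than one place was split proportionally, counts were scaled to usable reads, and 40 counts were added. They deposited log2 values, whose lowest is the log2 of 10 rather than of 40. The depth per library and the tool versions are not given in the sources used here. The submitters' processing notes name mm10.

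Values were used as deposited, and all 9 columns were matched to samples by title. VAT/BAT, SAT/BAT and VAT/SAT were each fitted on the 6 libraries of their depots with limma 3.58.1 in R 4.3.3 (two-sided, no block, Benjamini-Hochberg over 343 miRNAs), after a check on simulated data. P-values measure the spread between libraries, and nothing says which mouse each came from. The study used a 2-sample test per miRNA, run here as an alternative without moderation. Differences within a library were tested by exact permutation in Python 3.11.15 with numpy 2.4.6. Sequences come from RefSeq and loci from GENCODE M21. The miRNAs named are the 10 members, the 4 called miRNAs of the inflammation list with the largest VAT/BAT difference, miR-155-5p, miR-342-5p, both strands of miR-142, the 3 profiles nearest to each of 5 members, and any miRNA sharing a seed with one. MiR-125a-5p, the 1 miRNA of the inflammation list called lower in VAT/BAT, was added after its values were seen. The lists covered leukocytes, brown fat, Hox clusters, muscle, red cells, endothelium, fibroblasts and liver. Alternatives changed the offset, filter, scaling, libraries, block and moderation.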

Additional observations from a re-analysis of the deposited data

How the results depend on the processing

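The VAT/BAT differences of the 7 tested members kept their direction and their adjusted p under 0.05 in all 116 alternative fits. For the 3 of them that passed the filter only with VAT, this says little. Deposited values already follow rank within a library, so that quantile normalization changed them little and says little about scaling. It moved the VAT/BAT difference of miR-223-3p from 6.76 to 6.77 and that of miR-511-5p from 1.70 to 1.59. In SAT/BAT the 3 called members stayed called in 49 of 51 fits, and those not called became so in 6 of 49. In VAT/SAT the 3 called members stayed called in 30 of 53 fits, and those not called became so in 2 of 70. One difference reversed, miR-511-5p in VAT/SAT without SAT 19, at -0.048, and its difference was 1.09 without SAT 20, with no call in either. Where a setting brought in or dropped miRNAs, the number tested changed by construction. Otherwise the cause was not tested. Without the filter, 128 miRNAs were called in VAT/BAT (227 with it), 74 in SAT/BAT (139) and 4 in VAT/SAT (55), and of the members 1 was called in SAT/BAT (3 with it), 0 in VAT/SAT (3; 4 had an unadjusted p under 0.05 in limma) and 4 in the F test over the depots (7). With only the tested miRNAs whose mean was above the median mean, which leaves out members, 120 miRNAs and 4 members were called in VAT/BAT and 4 members in the F test. In VAT/SAT, values relative to miR-191-5p called 2 miRNAs and 1 member, the test without moderation 13 and 1, and all 9 libraries in one fit 30 miRNAs. The exact permutation p of miR-21a-5p minus miR-21a-3p was 0.218, and 0.0107 with a further 40 added, and that of the strands of miR-511 was 0.0143. Neither is read as a test of the strands, because values at the lowest level enter both.

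With each library left out, 3 to 5 members were called in SAT/BAT (5 without SAT 19), 0 to 3 in VAT/SAT and 6 to 7 in the F test, and 0 to 49 miRNAs of the table in VAT/SAT. In VAT/SAT the members called were 0 without SAT 19 or VAT 20 (4 at an unadjusted p under 0.05 in limma in each) and 1 without SAT 20 or VAT 14. Of all miRNAs, VAT/SAT called 0 without SAT 19 (104 at an unadjusted p under 0.05), 5 without VAT 20, 12 without SAT 20 and 23 without VAT 14. The permutation p ranged from 0.0429 to 0.582 for the strands of miR-21a, 0.00357 to 0.0607 for those of miR-511 and 0.0643 to 0.543 for the miR-146 pair.

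The numbers 14 and 20 occur in both SAT and VAT. Deviations from the depot mean in libraries with one number had correlations of -0.139 to 0.27 across miRNAs (4 pairs), so that the numbers were not seen to pair the libraries. With the title number as a replicate block, 55 miRNAs and 3 members were called in VAT/SAT, as without it. No fit with this block was made in VAT/BAT or SAT/BAT, which share only the number 20. With the depot number of the source names as a block, 0 miRNAs (105 at an unadjusted p under 0.05 in limma) and 0 members (4) were called in VAT/SAT.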
